A study of Mus musculus with 40 samples.

Results

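Dividing cells copy their DNA in S phase and separate the copies in mitosis, which follows the G2 phase. The behaviour of 42 genes of these phases was followed in bone marrow-derived macrophages (BMDMs), macrophages grown from bone marrow with the growth factor M-CSF, after addition of lipopolysaccharide (LPS), a bacterial cell wall component that activates macrophages through TLR4. The 42 genes were chosen by name from the 27179 genes of the table and comprised 14 S genes, 25 G2/M genes and 3 regulators. All 42 were found and all 42 passed the filter on low values in every comparison. The 40 libraries came from 4 WT and 4 Cpeb4-/- male mice of a mixed C57BL/6J and 129 background. The knockout lacks CPEB4, a protein that binds elements near the end of some mRNAs and controls their poly(A) length and translation, in the whole animal. Cells of each mouse were left untreated (0 hr) or received 10 ng/ml LPS for 1, 3, 6 or 9 hr, which gave 4 libraries for each genotype and time. One untreated group served all times, and the labels list the medium used from day 7 of culture without the L-cell supernatant that had supplied M-CSF. The labels do not say when the untreated cells were collected, and what the time after that change of medium adds to a difference from untreated cells was not tested.

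S phase begins when E2F transcription factors are released from the retinoblastoma family and switch on the genes of replication. Cdc6 and Cdt1 load the Mcm2 to Mcm7 helicase onto origins, Cdc45 and the GINS complex start it, Pcna clamps the polymerase onto DNA, and Rrm1, Rrm2 and Tyms supply nucleotides. G2/M genes are switched on later through CHR elements in their promoters, which are bound by the MuvB complex with Mybl2 (B-Myb) and Foxm1 in dividing cells and with repressive partners (the DREAM complex) in resting cells. BMDMs divide under M-CSF, and LPS is known to halt their division.

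The promoters of the 2 classes are shown first, since their letters were not used to choose the genes. RefSeq promoter windows (GRCm38.p6, the assembly of mm10; 250 bases before to 50 after the start) were matched by symbol for 35 of the 42 genes, of which 12 were S genes, 21 G2/M genes and 2 regulators. No window was matched for Mcm4, Gins2, Ccna2, Aurkb, Kif20a, Tpx2 and Mybl1. A CHR element, searched as TTTGAA or TTCGAA on both strands, was found in 17 of 21 G2/M genes (81%) and 3 of 12 S genes (25%), against 21.7% of the 27025 genes with a window. A CCAAT box, searched as CCAAT on both strands, was found in 19 of 21 G2/M genes (90.5%) and 9 of 12 S genes (75%), against 41.1% of all. An E2F site, searched as TTTCCCGC, TTTGGCGC, TTTCGCGC or TTTGCCGC on both strands, was found in 6 of 12 S genes (50%) and 1 of 21 G2/M genes (4.76%, Cdk1), against 2.6% of all. Both a CHR element and a CCAAT box were present in 17 of 21 G2/M genes, against 8.61% of all genes. These are matches of letters in a short window, not sites shown to be bound.

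Promoters of 2 G2/M genes and 2 S genes described below are printed to show these matches. They were picked from the panel, a fixed set of genes whose values are given below. The G2/M genes were those with the most CHR matches and the S genes those with the most E2F matches, so they are not typical. Ties were taken in list order. Of the panel Ccnb1 held no CHR match, and Pcna and Rrm2 held no E2F match. G2/M windows held 1.14 CHR matches on average and S windows 0.846 E2F matches. Capitals mark every match of the 3 searches, on either strand, and the start lies 50 bases before the end of each sequence.
Top2a (chr11:99024140-99024439, minus strand): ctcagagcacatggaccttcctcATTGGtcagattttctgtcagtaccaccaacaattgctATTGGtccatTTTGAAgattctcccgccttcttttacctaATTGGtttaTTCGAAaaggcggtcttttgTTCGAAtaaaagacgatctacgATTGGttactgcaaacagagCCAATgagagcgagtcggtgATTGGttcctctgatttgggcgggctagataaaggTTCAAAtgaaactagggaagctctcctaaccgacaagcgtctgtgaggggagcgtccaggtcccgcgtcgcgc
Mki67 (chr7:135716330-135716629, minus strand): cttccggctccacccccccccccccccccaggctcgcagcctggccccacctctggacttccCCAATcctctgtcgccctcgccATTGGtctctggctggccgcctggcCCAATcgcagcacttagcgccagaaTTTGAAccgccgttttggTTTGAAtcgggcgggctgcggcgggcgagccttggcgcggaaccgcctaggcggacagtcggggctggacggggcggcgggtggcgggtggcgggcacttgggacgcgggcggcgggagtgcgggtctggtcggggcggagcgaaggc
Mcm5 (chr8:75109259-75109558, plus strand): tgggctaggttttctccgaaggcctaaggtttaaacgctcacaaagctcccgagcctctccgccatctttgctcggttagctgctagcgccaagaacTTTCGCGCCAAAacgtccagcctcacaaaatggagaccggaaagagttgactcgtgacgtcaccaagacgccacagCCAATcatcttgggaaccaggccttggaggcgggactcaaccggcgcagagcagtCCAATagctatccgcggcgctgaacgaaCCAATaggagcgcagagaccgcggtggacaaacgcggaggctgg
Cdc6 (chr11:98907901-98908200, plus strand): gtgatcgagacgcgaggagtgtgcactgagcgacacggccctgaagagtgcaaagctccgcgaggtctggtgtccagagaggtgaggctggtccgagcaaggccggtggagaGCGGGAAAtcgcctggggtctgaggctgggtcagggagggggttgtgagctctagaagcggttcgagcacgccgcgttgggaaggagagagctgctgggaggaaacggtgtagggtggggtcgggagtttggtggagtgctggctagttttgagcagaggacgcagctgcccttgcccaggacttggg
Top2a (topoisomerase II alpha, which untangles DNA before chromosomes separate) held 4 CHR and 6 CCAAT matches and no E2F match. Mki67 (the proliferation antigen Ki-67, which coats mitotic chromosomes) held 2 CHR and 3 CCAAT matches. In Mcm5, a helicase subunit, 2 E2F matches on opposite strands overlapped in 1 stretch of capitals, and 3 CCAAT matches followed. Cdc6, the helicase loader, held a single E2F match. The Cdc6 window lies inside the gene as annotated (chr11:98907801-98923940), so this match follows the annotated start of the gene.

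All values below are rlog values, a log2 scale that the authors corrected for library size. A difference of 1 is about a doubling of the corrected level, and differences of low genes are understated. The scale is not divided by gene length, so levels are compared between libraries and not between genes. The table gives no counts, so the depth is unknown from these values, and the spread between the 4 mice is the measure of error. In bulk RNA, fewer dividing cells and less of a transcript per cell cannot be told apart. Libraries of one group correlated with r of 0.998 to 0.999 across genes, and no pair was identical. Values of 4 libraries are given in the order of mice 25, 69, 87 and 88 for WT and 2, 3, 55 and 62 for Cpeb4-/-, and gene positions are those of mm10. Cpeb4 (chr11:31872211-31935634) lay between 10.09 and 10.67 in WT and 8.74 and 9.66 in Cpeb4-/- at 6 hr, but the genotypes overlapped at 0, 1, 3 and 9 hr, so the gene-level value separates them at 6 hr only and genotypes are used as labelled. All 9 macrophage markers were high in all 40 libraries, from 8.89 (lowest, Mertk) to 18.9 (highest, Lyz2). Lists of markers of other cells had means of 0.486 to 1.57 for myeloid progenitors, 2.37 to 3.46 for neutrophils, −0.155 to 0.534 for lymphoid cells and 1.34 to 4.16 for fibroblasts. These lists mixed genes under the filter on low values in every library, such as Elane, Prtn3 and Ly6g, with detected ones. In all 40 libraries Pdgfrb (5.34 to 9.43), S100a8 (4.996 to 7.70), S100a9 (3.93 to 6.01) and Cd34 (3.13 to 5.72) were at or above the filter, as were Ngp in 39 and Kit in 37.

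After LPS the whole set fell, in both genotypes. At 9 hr all 42 genes were lower than in untreated cells in WT and all 42 in Cpeb4-/-, with an adjusted p under 0.05 from limma, against 36.6% of all tested genes lower and 37% higher in WT, and 35.6% lower and 35.7% higher in Cpeb4-/-. The median change at 9 hr was −1.38 for S genes and −1.85 for G2/M genes in WT, and −1.36 and −1.93 in Cpeb4-/-, while the median of all tested genes was −0.004 in WT and −0.008 in Cpeb4-/-. The classes overlapped throughout, with S genes between −2.63 and −0.48 and G2/M genes between −2.69 and −0.38 in WT. At 6 hr 41 genes were lower and 1 higher in WT (40.2% lower and 39.7% higher of all genes), and 41 were lower in Cpeb4-/- (39.5% lower, 38.4% higher), Tpx2 being the exception in both. The macrophage marker mean rose over the same hours, from 14.5 to 15.2 in WT and 14.41 to 14.99 in Cpeb4-/- at 6 hr, and the fibroblast list mean from 1.40 to 2.66 and from 1.60 to 3.05. Of the fibroblast list Pdgfrb was detected in all 40 libraries, Col1a1 passed the filter level in 7 and Pdgfra in none. The part of these lists in the fall was not tested.

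**Figure D1:**
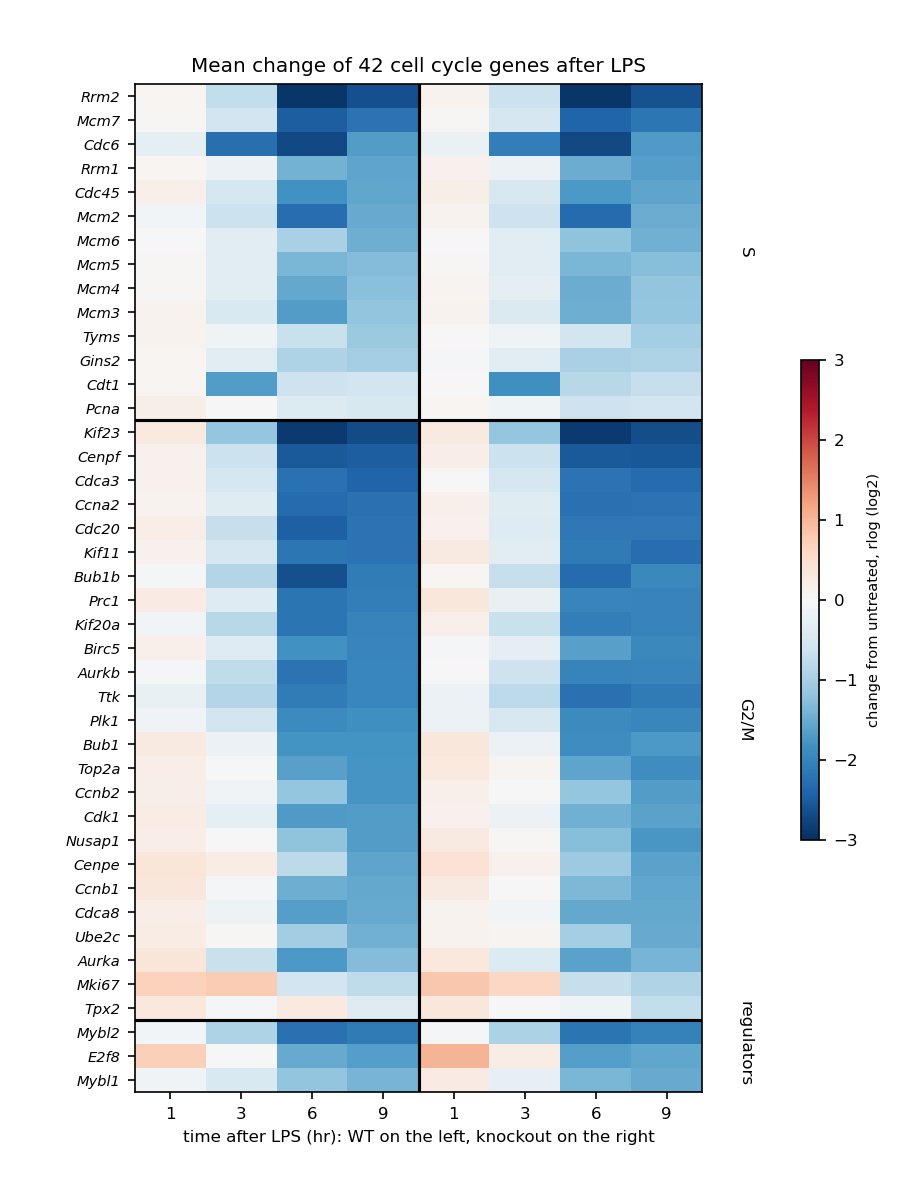
Mean change of each of the 42 genes from untreated cells, as rlog (log2), at 1, 3, 6 and 9 hr of LPS in WT (left block) and knockout (right block), with genes sorted within class by the WT change at 9 hr. Nearly every row is blue at 6 and 9 hr, Mki67 and E2f8 are red at 1 hr, Cdc6 and Cdt1 are blue already at 3 hr, and Tpx2 is the palest G2/M row.

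The first hour gave no fall of the set. In WT 9 genes were higher and 1 lower at 1 hr (19.4% higher and 18.3% lower of all genes), and in Cpeb4-/- 12 were higher and none lower by limma (22.6% and 19.4% of all), with the same counts of 12 and none at an unadjusted p under 0.05 (26.1% higher and 22.3% lower of all genes). Of the 25 G2/M genes 7 were higher in WT and 11 in Cpeb4-/-, with a class median of 0.20 and 0.16. Of the 14 S genes Pcna was higher and Cdc6 lower in WT, and none passed in Cpeb4-/-, with medians of 0.06 and 0.04. Mki67, Ccnb1, Aurka, Bub1, Kif23, Cenpe and Tpx2 rose in both genotypes. With the mouse as a block, which compares each mouse with itself, 18 genes were higher and 1 lower in WT, and 17 were higher and 1 lower in Cpeb4-/-. The shares of all genes given above are not from this fit. No such share was counted for it or for the quantile normalization below. The split depended on the scaling. With quantile normalization 6 were higher and 3 lower in Cpeb4-/- and 8 higher and 2 lower in WT, and the Pcna change in WT turned from 0.18 to −0.09. Without Cpeb4-/- mouse 55, 7 genes were called in Cpeb4-/-, all of them higher.

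Mki67 (chr7:135689784-135716361) rose most among the G2/M genes at 1 hr and was still high at 3 hr before it fell. The rlog of Mki67 in WT libraries was 12.53, 12.30, 12.11 and 12.26 untreated, 13.17, 13.20, 12.79 and 12.79 at 1 hr, 12.92, 13.07, 12.90 and 13.32 at 3 hr, 11.74, 11.64, 11.81 and 11.74 at 6 hr and 11.55, 11.51, 11.59 and 11.50 at 9 hr. Mki67 in Cpeb4-/- libraries was 12.48, 12.78, 12.49 and 12.34 untreated, 13.22, 13.48, 13.36 and 13.29 at 1 hr, 13.28, 13.20, 13.12 and 13 at 3 hr, 11.91, 11.98, 11.89 and 11.50 at 6 hr and 11.41, 11.96, 11.61 and 11.51 at 9 hr. Every library at 1 and 3 hr of either genotype lay above every untreated library of that genotype, and every library at 6 and 9 hr lay below. The change in WT was 0.68 (SE 0.114, adjusted p = 6.53e-06, limma) at 1 hr, 0.75 (SE 0.114, adjusted p = 4.20e-07, limma) at 3 hr and −0.76 (SE 0.114, adjusted p = 2.97e-07, limma) at 9 hr. With quantile normalization the rise was kept at 1 hr (0.48 in WT and 0.60 in Cpeb4-/-) and not at 3 hr (0.22, adjusted p = 0.0927 in WT, and 0.10, adjusted p = 0.487 in Cpeb4-/-).

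E2f8, an atypical E2F that represses E2F target genes, was highest at 1 hr in both genotypes, and its WT values at 3 hr overlapped the untreated ones. The rlog of E2f8 in WT libraries was 9.66, 9.73, 9.32 and 9.33 untreated, 10.35, 10.50, 10.02 and 10.01 at 1 hr, 9.22, 9.68, 9.28 and 9.82 at 3 hr, 7.92, 8.03, 7.94 and 8.06 at 6 hr and 7.89, 7.70, 7.97 and 7.88 at 9 hr. E2f8 in Cpeb4-/- libraries was 9.47, 9.82, 9.53 and 9.42 untreated, 10.42, 10.66, 10.54 and 10.66 at 1 hr, 9.88, 9.70, 9.81 and 9.72 at 3 hr, 7.76, 7.93, 8.11 and 7.82 at 6 hr and 7.90, 8.13, 7.98 and 7.97 at 9 hr. All 4 libraries at 1 hr lay above all untreated ones in each genotype, and the change was 0.71 (SE 0.116, adjusted p = 4.53e-06, limma) in WT and 1.01 (SE 0.116, adjusted p = 3.69e-09, limma) in Cpeb4-/-. By 6 hr all lay below the untreated range.

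Mybl2 (B-Myb) did not peak and fell from 3 hr on. The rlog of Mybl2 in WT libraries was 7.73, 7.65, 7.60 and 7.50 untreated, 7.65, 7.52, 7.68 and 7.28 at 1 hr, 6.63, 6.66, 6.69 and 6.77 at 3 hr, 5.16, 5.62, 5.47 and 5.30 at 6 hr and 5.52, 5.64, 5.48 and 5.34 at 9 hr. Mybl2 in Cpeb4-/- libraries was 7.41, 7.80, 7.59 and 7.64 untreated, 7.48, 7.67, 7.57 and 7.46 at 1 hr, 6.74, 6.68, 6.57 and 6.68 at 3 hr, 5.45, 5.46, 5.28 and 5.46 at 6 hr and 5.45, 5.77, 5.72 and 5.42 at 9 hr. No library at 3, 6 or 9 hr overlapped the untreated ones, and the change in WT at 9 hr was −2.13 (SE 0.0961, adjusted p = 9.82e-21, limma). Its relative Mybl1 (A-Myb) was expressed at a low level with a wide spread between mice. The rlog of Mybl1 in WT libraries was 5.99, 6.02, 5.20 and 5.50 untreated, 6.16, 5.997, 5.01 and 5.16 at 1 hr, 4.89, 5.44, 4.91 and 5.61 at 3 hr, 4.38, 4.57, 4.24 and 4.77 at 6 hr and 4.22, 4.40, 4.22 and 4.24 at 9 hr. Mybl1 in Cpeb4-/- libraries was 5.78, 6.29, 5.78 and 6.06 untreated, 5.70, 6.57, 6.38 and 6.28 at 1 hr, 5.89, 5.80, 5.56 and 5.68 at 3 hr, 4.77, 4.60, 4.85 and 4.20 at 6 hr and 4.05, 5.07, 4.27 and 4.44 at 9 hr. In untreated WT cells mice 87 and 88 lay below mice 25 and 69, and at 9 hr the 4 WT libraries lay close together. Its change in WT at 9 hr was −1.41 (SE 0.231, adjusted p = 1.54e-06, limma).

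At 3 hr most genes of both classes had begun to fall. In WT 12 of 14 S genes were lower, all but Pcna and Tyms, and 13 in Cpeb4-/-, all but Tyms. Of the 25 G2/M genes 15 were lower and Mki67 was higher in WT, and 14 were lower and Mki67 higher in Cpeb4-/-. Against these 28 lower and 1 higher in each genotype stood 36.4% lower and 33.5% higher of all genes in WT, and 36.2% and 33.7% in Cpeb4-/-. The median change in WT was −0.39 for S genes and −0.38 for G2/M genes. The 9 G2/M genes that had not passed in WT were Top2a, Ccnb1, Ccnb2, Cdca8, Bub1, Cenpe, Nusap1, Tpx2 and Ube2c. With quantile normalization 33 genes were lower and none higher in WT, Pcna and Top2a among them, and 34 were lower and none higher in Cpeb4-/-. The share of all genes was not counted with this scaling.

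The licensing factors Cdc6 and Cdt1 had the largest falls of the set at 3 hr, with changes of −2.25 (SE 0.0993, adjusted p = 4.67e-21, limma) and −1.67 (SE 0.0673, adjusted p = 2.98e-22, limma) in WT. The rlog of Cdc6 in WT libraries was 8.23, 8.21, 8.28 and 7.93 untreated, 7.87, 7.81, 7.99 and 7.79 at 1 hr, 5.97, 5.73, 5.98 and 5.96 at 3 hr, 5.54, 5.54, 5.36 and 5.35 at 6 hr and 6.36, 6.50, 6.66 and 6.43 at 9 hr. Cdc6 in Cpeb4-/- libraries was 8.14, 8.31, 8.27 and 8.08 untreated, 7.92, 8.10, 7.90 and 8.07 at 1 hr, 6.25, 6.05, 5.95 and 6.21 at 3 hr, 5.43, 5.59, 5.29 and 5.62 at 6 hr and 6.76, 6.49, 6.58 and 6.19 at 9 hr. Cdc6 (chr11:98907801-98923940) had most of its fall by 3 hr, was lowest at 6 hr and was higher again in all 8 mice at 9 hr. The rlog of Cdt1 in WT libraries was 10.58, 10.73, 10.77 and 10.48 untreated, 10.70, 10.67, 10.81 and 10.62 at 1 hr, 9.01, 8.88, 9.05 and 8.93 at 3 hr, 9.91, 10.11, 9.97 and 10.06 at 6 hr and 9.99, 10.11, 9.97 and 10.18 at 9 hr. Cdt1 in Cpeb4-/- libraries was 10.55, 10.52, 10.64 and 10.43 untreated, 10.58, 10.55, 10.46 and 10.51 at 1 hr, 8.73, 8.68, 8.70 and 8.65 at 3 hr, 9.54, 9.81, 9.83 and 9.59 at 6 hr and 9.99, 9.77, 9.88 and 9.77 at 9 hr. Cdt1 (chr8:122568015-122573554) reached its lowest level at 3 hr, the one gene of the 42 to do so, and most of the fall was gone at 6 hr.

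**Figure D2:**
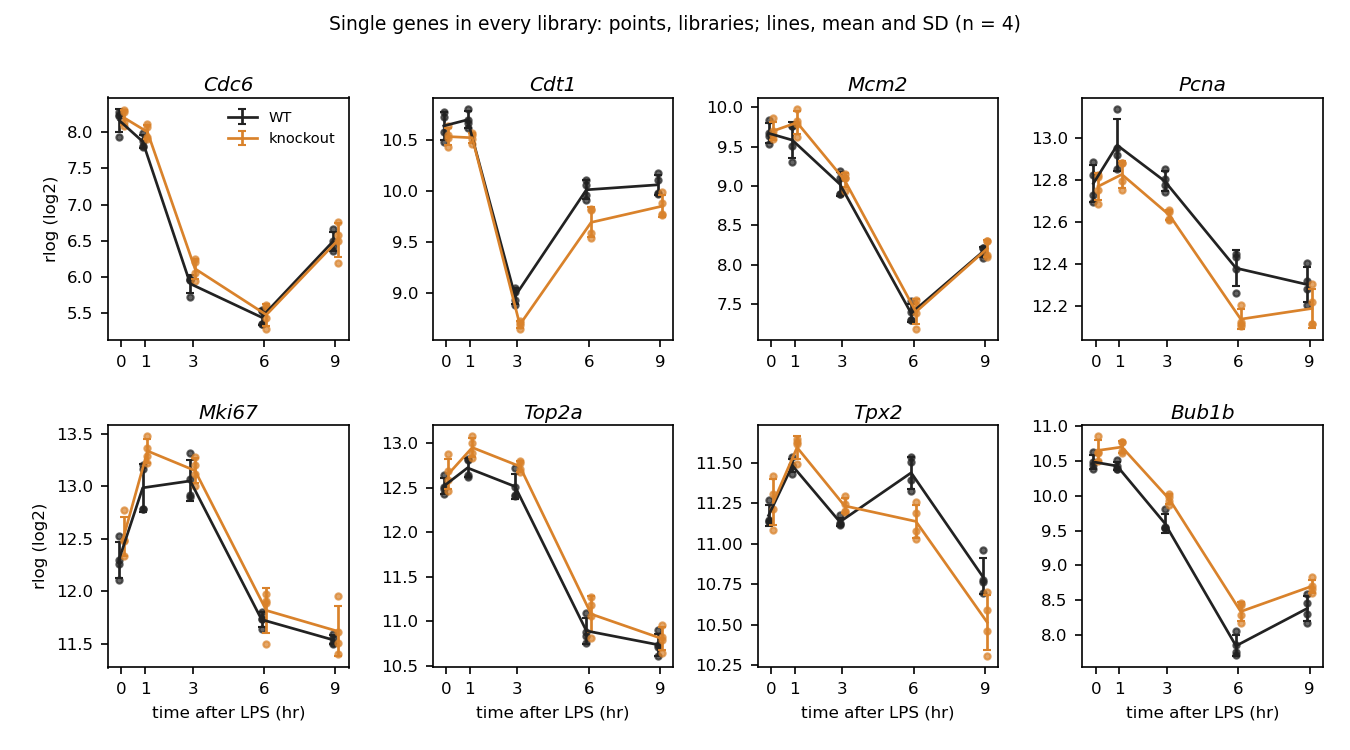
rlog (log2) of 8 genes against time after LPS (hr) in WT and knockout, where points are libraries and lines join the means with SD bars (n = 4). Cdc6 and Cdt1 drop by 3 hr, Mki67 is raised at 1 and 3 hr, Mcm2 turns upward between 6 and 9 hr, and Tpx2 and Bub1b separate the genotypes at 6 hr.

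The other S genes of the panel fell less by 3 hr. The rlog of Mcm5 in WT libraries was 11.55, 11.55, 11.80 and 11.48 untreated, 11.63, 11.59, 11.83 and 11.51 at 1 hr, 11.30, 11.24, 11.34 and 11.19 at 3 hr, 10.21, 10.26, 10.32 and 10.12 at 6 hr and 10.32, 10.29, 10.41 and 10.20 at 9 hr. Mcm5 in Cpeb4-/- libraries was 11.35, 11.52, 11.43 and 11.38 untreated, 11.44, 11.55, 11.43 and 11.38 at 1 hr, 11.05, 11.15, 11.11 and 11.03 at 3 hr, 10.05, 10.11, 10.10 and 9.98 at 6 hr and 10.21, 10.20, 10.23 and 9.94 at 9 hr. Every Mcm5 library at 3, 6 and 9 hr lay below every untreated library of its genotype, and the WT change at 9 hr was −1.29 (SE 0.0671, adjusted p = 5.97e-19, limma). The rlog of Rrm2 in WT libraries was 10.46, 10.51, 10.37 and 10.32 untreated, 10.58, 10.59, 10.43 and 10.32 at 1 hr, 9.60, 9.70, 9.66 and 9.79 at 3 hr, 7.41, 7.49, 7.62 and 7.48 at 6 hr and 7.95, 7.67, 7.88 and 7.64 at 9 hr. Rrm2 in Cpeb4-/- libraries was 10.30, 10.57, 10.35 and 10.20 untreated, 10.45, 10.59, 10.52 and 10.28 at 1 hr, 9.79, 9.71, 9.67 and 9.65 at 3 hr, 7.53, 7.45, 7.48 and 7.26 at 6 hr and 7.88, 7.84, 7.62 and 7.63 at 9 hr. Rrm2, the regulated subunit of ribonucleotide reductase, had the largest fall of the S genes, −2.63 (SE 0.0816, adjusted p = 1.45e-25, limma) in WT at 9 hr, which left 16.2% of the untreated level on this scale. The rlog of Pcna in WT libraries was 12.69, 12.82, 12.89 and 12.73 untreated, 12.85, 12.92, 13.14 and 12.95 at 1 hr, 12.78, 12.81, 12.85 and 12.74 at 3 hr, 12.26, 12.43, 12.38 and 12.45 at 6 hr and 12.20, 12.40, 12.28 and 12.32 at 9 hr. Pcna in Cpeb4-/- libraries was 12.68, 12.81, 12.83 and 12.75 untreated, 12.88, 12.88, 12.79 and 12.75 at 1 hr, 12.62, 12.66, 12.65 and 12.61 at 3 hr, 12.10, 12.21, 12.12 and 12.12 at 6 hr and 12.31, 12.12, 12.22 and 12.11 at 9 hr. Pcna had the smallest fall of the S genes, −0.48 (SE 0.0542, adjusted p = 7.25e-10, limma) in WT and −0.58 (SE 0.0542, adjusted p = 8.00e-12, limma) in Cpeb4-/- at 9 hr, and in WT every library at 6 and 9 hr lay below every untreated one. The other S genes with the largest falls at 9 hr in WT were Mcm7, −2.22 (SE 0.0675, adjusted p = 7.63e-26, limma), with 10.66, 10.68, 10.87 and 10.54 untreated and 8.42, 8.50, 8.50 and 8.43 at 9 hr, and Cdc6, −1.67 (SE 0.0993, adjusted p = 2.97e-17, limma). Exons of Mcm7 overlap those of Cops6 and Ap4m1 on the other strand, and the library kit does not keep the strand, so reads of these genes cannot be told apart there.

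The cyclins and Top2a of the G2/M panel began to fall at different times. The rlog of Top2a in WT libraries was 12.65, 12.51, 12.43 and 12.48 untreated, 12.81, 12.82, 12.64 and 12.62 at 1 hr, 12.42, 12.51, 12.40 and 12.72 at 3 hr, 10.83, 10.76, 11.10 and 10.88 at 6 hr and 10.73, 10.71, 10.90 and 10.61 at 9 hr. Top2a in Cpeb4-/- libraries was 12.59, 12.87, 12.69 and 12.47 untreated, 12.89, 13.08, 12.998 and 12.83 at 1 hr, 12.77, 12.80, 12.71 and 12.67 at 3 hr, 11.28, 11.18, 11.06 and 10.81 at 6 hr and 10.79, 10.95, 10.83 and 10.64 at 9 hr. Top2a was higher at 1 hr in all 8 mice, with a mean change of 0.21 in WT, which was not called, and 0.30 in Cpeb4-/-, which was. After quantile normalization these were −0.06 and 0.03, and neither was called. It overlapped the untreated libraries at 3 hr and lay below them all at 6 and 9 hr, with a WT change of −1.78 (SE 0.0903, adjusted p = 3.02e-19, limma) at 9 hr. The rlog of Ccna2 in WT libraries was 10.97, 10.81, 10.91 and 10.84 untreated, 11.06, 10.91, 11.08 and 10.92 at 1 hr, 10.49, 10.49, 10.52 and 10.63 at 3 hr, 8.55, 8.47, 8.77 and 8.54 at 6 hr and 8.60, 8.61, 8.83 and 8.51 at 9 hr. Ccna2 in Cpeb4-/- libraries was 10.95, 11.01, 10.998 and 10.77 untreated, 11.12, 11.15, 11.17 and 10.93 at 1 hr, 10.67, 10.56, 10.54 and 10.54 at 3 hr, 8.97, 8.73, 8.55 and 8.50 at 6 hr and 8.91, 8.75, 8.77 and 8.42 at 9 hr. Ccna2, the cyclin A2 of S and G2 phase, was already below every untreated library at 3 hr and changed by −2.24 (SE 0.0892, adjusted p = 2.10e-22, limma) at 9 hr. The rlog of Ccnb1 in WT libraries was 8.85, 8.80, 8.82 and 8.87 untreated, 9.14, 9.14, 9.20 and 9.19 at 1 hr, 8.71, 8.65, 8.79 and 9.003 at 3 hr, 7.42, 7.18, 7.54 and 7.37 at 6 hr and 7.26, 7.29, 7.34 and 7.26 at 9 hr. Ccnb1 in Cpeb4-/- libraries was 8.91, 8.98, 8.98 and 8.61 untreated, 9.22, 9.08, 9.28 and 8.97 at 1 hr, 9, 8.78, 8.81 and 8.89 at 3 hr, 7.75, 7.46, 7.44 and 7.41 at 6 hr and 7.42, 7.36, 7.39 and 7.02 at 9 hr. Ccnb1 encodes cyclin B1, the partner of Cdk1 at entry into mitosis, overlapped the untreated libraries at 3 hr, and changed by −1.54 (SE 0.0903, adjusted p = 1.88e-17, limma) at 9 hr.

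Cdk1, the kinase that drives mitosis, and Plk1, a kinase of the spindle poles and kinetochores, also fell. The rlog of Cdk1 in WT libraries was 11.23, 11.19, 11.35 and 11.19 untreated, 11.37, 11.39, 11.60 and 11.46 at 1 hr, 10.94, 10.87, 11.10 and 11.01 at 3 hr, 9.33, 9.40, 9.84 and 9.59 at 6 hr and 9.43, 9.59, 9.76 and 9.45 at 9 hr. Cdk1 in Cpeb4-/- libraries was 11.19, 11.22, 11.34 and 10.93 untreated, 11.42, 11.32, 11.37 and 11.07 at 1 hr, 11.05, 10.95, 11.01 and 10.93 at 3 hr, 9.95, 9.74, 9.75 and 9.51 at 6 hr and 9.73, 9.62, 9.62 and 9.29 at 9 hr. The Cdk1 change at 9 hr in WT was −1.68 (SE 0.101, adjusted p = 4.38e-17, limma). The rlog of Plk1 in WT libraries was 9.90, 9.83, 9.89 and 9.76 untreated, 9.69, 9.74, 9.83 and 9.69 at 1 hr, 9.20, 9.34, 9.18 and 9.45 at 3 hr, 7.81, 7.86, 8.14 and 7.92 at 6 hr and 7.996, 8.01, 8.17 and 7.82 at 9 hr. Plk1 in Cpeb4-/- libraries was 9.88, 9.996, 9.92 and 9.65 untreated, 9.82, 9.66, 9.77 and 9.48 at 1 hr, 9.39, 9.34, 9.43 and 9.34 at 3 hr, 8.10, 8.03, 7.88 and 7.83 at 6 hr and 8.01, 7.97, 8.04 and 7.57 at 9 hr. The Plk1 change was −1.85 (SE 0.0908, adjusted p = 1.14e-19, limma). For both genes every library at 6 and 9 hr lay below every untreated library of its genotype.

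The 3 largest falls among G2/M genes at 9 hr in WT were those of Kif23, a kinesin of the midzone needed for cytokinesis, Cenpf, a kinetochore protein, and Cdca3, which triggers destruction of the mitosis inhibitor Wee1. Kif23 went from 10.68, 10.58, 10.56 and 10.54 to 7.83, 7.88, 7.97 and 7.95, a change of −2.69 (SE 0.0793, adjusted p = 3.27e-26, limma). Cenpf went from 10.33, 10.10, 10 and 10.12 to 7.60, 7.59, 7.84 and 7.61, a change of −2.48 (SE 0.108, adjusted p = 3.33e-21, limma). Cdca3 went from 10.51, 10.50, 10.75 and 10.56 to 8.10, 8.15, 8.31 and 8.14, a change of −2.40 (SE 0.106, adjusted p = 4.27e-21, limma). None of these groups overlapped. The kinesin Kif23 was among the genes that had risen at 1 hr.

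The mean of the S class fell relative to that of the G2/M class until 3 hr and rose relative to it by 9 hr. The S mean at 3 hr takes in Cdc6 and Cdt1, with changes of −2.25 and −1.67 in WT. In WT the median change of single genes at 3 hr was −0.393 for S genes and −0.381 for G2/M genes. In Cpeb4-/- these medians were −0.387 and −0.275. The mean rlog of the 14 S genes minus that of the 25 G2/M genes was compared with the untreated cells of the same mouse, as a description with no test, since the genes were chosen with results known. In WT this change was −0.08, −0.19, −0.16 and −0.14 at 1 hr, −0.11, −0.26, −0.28 and −0.31 at 3 hr, 0.29, 0.25, −0.01 and 0.30 at 6 hr and 0.50, 0.36, 0.22 and 0.60 at 9 hr. In Cpeb4-/- it was −0.14, −0.01, −0.24 and −0.21 at 1 hr, −0.30, −0.22, −0.29 and −0.44 at 3 hr, 0.01, 0.20, 0.18 and 0.18 at 6 hr and 0.49, 0.45, 0.44 and 0.41 at 9 hr. All 8 mice were below 0 at 1 and 3 hr, 7 of 8 were above 0 at 6 hr and all 8 at 9 hr. The WT mean was −0.24 ± 0.09 at 3 hr and 0.42 ± 0.16 at 9 hr (SD, n = 4). The Cpeb4-/- mean was −0.31 ± 0.09 at 3 hr and 0.45 ± 0.03 at 9 hr. With the median level of the genes in each library in place of the mean, the WT value was −0.37 at 3 hr and 0.23 at 9 hr. The same difference between the classes, as a level in each mouse, was compared between genotypes. Cpeb4-/- minus WT was −0.13, −0.14, −0.20, −0.20 and −0.10 from 0 to 9 hr, and with medians over the genes it was positive at 9 hr, 0.029. At 3 hr all 4 Cpeb4-/- mice lay below all 4 WT mice, and the groups overlapped at the other times. The margin at 3 hr was narrow, with WT mouse 88 at −0.343 and Cpeb4-/- mouse 55 at −0.352. From 0 to 9 hr the genotype difference was −0.026, −0.024, −0.15, −0.13 and −0.14 in batch 1 and −0.24, −0.26, −0.26, −0.26 and −0.067 in batch 2.

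**Figure D3:**
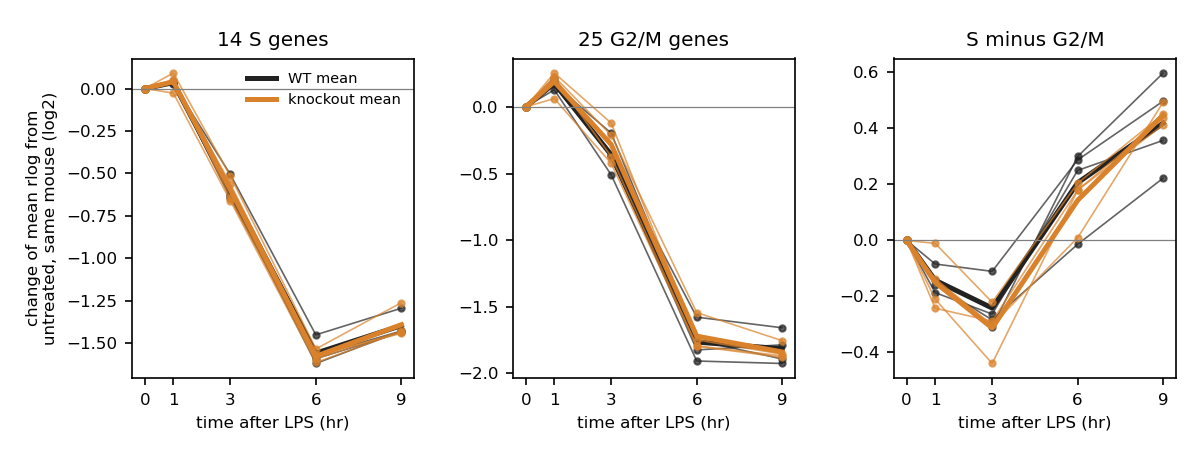
Change of the mean rlog (log2) from the untreated cells of the same mouse for the 14 S genes, the 25 G2/M genes and S minus G2/M, against time after LPS (hr). Thin lines are mice and thick lines are the means of the 4 WT and 4 knockout mice, which lie nearly on each other. The S minus G2/M line is below 0 at 1 and 3 hr and above 0 in all 8 mice at 9 hr.

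Between 6 and 9 hr of LPS, in a comparison added after the values were seen, genes of both classes moved in either direction. The difference between the classes was not tested. In WT 7 of 14 S genes rose and 3 fell, and 4 of 25 G2/M genes rose and 5 fell, against 24.9% higher and 29.5% lower of all genes, with a median of 0.16 for S genes and 0.02 for G2/M genes. In Cpeb4-/- 7 S genes rose and 3 fell, and 2 G2/M genes rose and 8 fell, against 24.8% and 26.6% of all, with medians of 0.15 and −0.06. The S genes that rose in both genotypes were Mcm2, Mcm3, Mcm4, Mcm7, Rrm2 and Cdc6, and Mcm6, Rrm1 and Tyms fell in both. Ccnb2, Cenpe, Nusap1, Tpx2 and Ube2c fell in both, while Bub1b and Kif23 rose in both. Cdc6 rose by 1.04 (SE 0.0993, adjusted p = 4.15e-11, limma) in WT and 1.02 (SE 0.0993, adjusted p = 7.82e-11, limma) in Cpeb4-/-. For the helicase subunit Mcm2 the WT libraries went from 7.30, 7.40, 7.54 and 7.29 at 6 hr to 8.14, 8.08, 8.22 and 8.21 at 9 hr, and the Cpeb4-/- libraries from 7.18, 7.48, 7.54 and 7.39 to 8.10, 8.31, 8.29 and 8.12, with no overlap of the times. Its WT change was 0.78 (SE 0.0936, adjusted p = 8.17e-09, limma). The motor protein Cenpe had the largest further fall in WT, −0.79 (SE 0.102, adjusted p = 4.01e-08, limma). The helicase subunits did not move as one, since Mcm6 fell by 0.49 in WT while the other subunits rose or, for Mcm5, changed by 0.07 without passing the test. With quantile normalization 10 genes were higher and 7 lower in WT and 6 and 9 in Cpeb4-/-, where Mcm7, Rrm2 and Cdt1 no longer passed, and Kif23 passed in neither genotype. The share of all genes was not counted with this scaling.

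**Figure D4:**
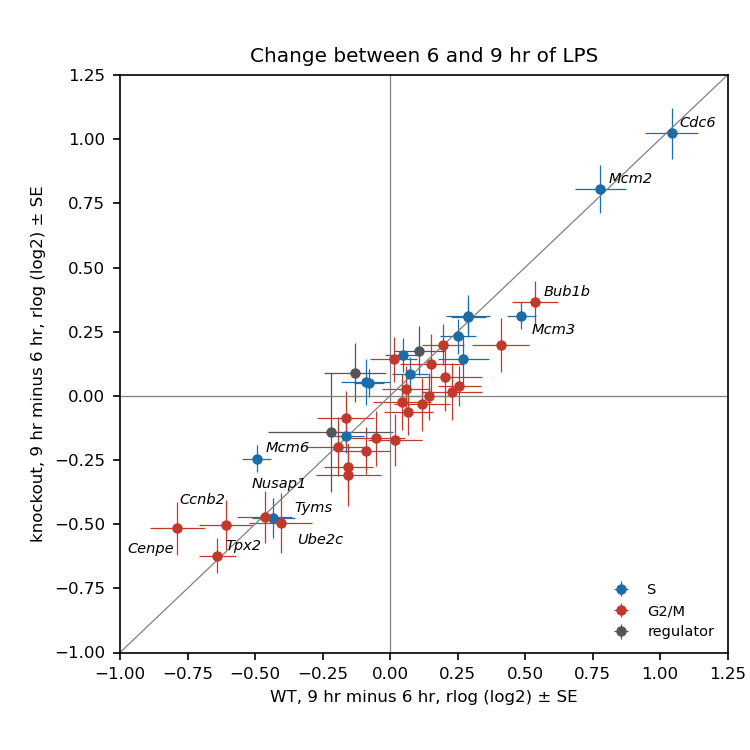
Change of each gene from 6 to 9 hr of LPS, as rlog (log2) with SE bars, in WT (horizontal) and knockout (vertical), where points on the diagonal changed equally. Cdc6 and Mcm2 lie at the upper right, and Cenpe, Ccnb2 and Tpx2 at the lower left.

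The genes of the same processes outside the set moved with it. In WT at 9 hr, where 36.6% of all tested genes were lower and 37% higher, all 30 other replication genes were lower. Their median was −1.11, and the largest falls were those of Dut (−2.97, SE 0.12), which clears dUTP, and Tk1 (−2.19, SE 0.093), which salvages thymidine. Of 33 other mitosis genes 30 were lower and 1 higher, with a median of −1.85. Anln (−2.28, SE 0.11) and Spc25 (−2.26, SE 0.10) fell most, and Pttg1 (securin, which holds back the separation of sister chromatids) rose by 0.89 (SE 0.099). Of 18 other genes of G1/S control 14 were lower and 2 higher, with a median of −0.51. E2f2 (−2.82, SE 0.077) and E2f7 (−2.50, SE 0.13) fell most, and E2f3 (0.48, SE 0.053) and Lin54 (0.27, SE 0.10), a DNA-binding subunit of MuvB, rose. Each of these had an adjusted p under 0.05 from limma over all genes.

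With each time fitted on its own, the knockout differed from WT in few of the 42 genes, with the highest count at 6 hr. In the fit with the replicate block given below the highest count was at 1 hr. In untreated cells limma called none of them, with 6 at an unadjusted p under 0.05 (4 higher, all G2/M, and 2 lower, both S). Of all genes 0.741% were called higher and 0.565% lower, and 9.1% were higher and 8.51% lower at that unadjusted p. At 1 hr only Bub1b was called, higher in Cpeb4-/- (0.976% higher and 0.938% lower of all genes). At 3 hr Bub1b and Cdc20 were higher and Cdt1 lower (1.81% and 1.87%). At 6 hr 4 G2/M genes were higher, and 5 S genes and Tpx2 were lower (6.4% higher and 9.92% lower of all genes). At 9 hr none was called by limma, with 6 at an unadjusted p under 0.05 (4 higher and 2 lower). Of all genes 4.69% were called higher and 3.22% lower, and 14.4% were higher and 12.5% lower at that unadjusted p, shares above those of the 42 genes. The median difference was above 0 for G2/M genes at all 5 times, between 0.08 and 0.14, and below 0 for S genes, between −0.06 and −0.02, with all genes between −0.02 and 0.02. Of the 25 G2/M genes 19, 16, 24, 22 and 18 had a higher mean in Cpeb4-/- at 0, 1, 3, 6 and 9 hr. Among the 13008 to 13118 genes tested these counts were 6755, 6941, 6768, 5936 and 6635. The genes were measured in the same libraries, so such counts are not of independent genes.

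These counts rest on few mice. At 1 hr no gene was called without Cpeb4-/- mouse 3, 55 or 62 or without WT mouse 25, 87 or 88, 2 without Cpeb4-/- mouse 2 and 10 without WT mouse 69. At 3 hr the count was 0 without Cpeb4-/- mouse 2, 3 or 62 or WT mouse 25, 1 without Cpeb4-/- mouse 55 or WT mouse 87, and 19 without WT mouse 88 (13 G2/M genes higher and 4 S genes lower among them). At 6 hr it was 5 without Cpeb4-/- mouse 2 or 3 and 6 without WT mouse 69 or 88. At 9 hr it was 6 without Cpeb4-/- mouse 2 and 1 without Cpeb4-/- mouse 62 or WT mouse 87, and in untreated cells 1 (Kif23) without Cpeb4-/- mouse 62. When the 40 libraries were fitted together and the mouse was a random term (replicate block), 15 genes were called at 1 hr (9 G2/M genes higher, 1 lower and 3 S genes lower), 8 at 3 hr (5 G2/M genes higher and 3 S genes lower), 10 at 6 hr and 5 at 9 hr. The share of all genes called was not counted in that fit or with a mouse left out. Whether these counts stand out from all genes is therefore unknown. No cage held both genotypes, so cage and genotype cannot be told apart. Cpeb4-/- mice 2 and 3 shared cage 104, and WT mice 87 and 88 shared cage 9. The fits treated mice of one cage as separate replicates, and what the cage adds was not tested.

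At 6 hr the 5 lower S genes were Mcm6, Cdt1, Pcna, Gins2 and Mcm5, and in all 5 the 4 Cpeb4-/- libraries lay below the 4 WT libraries. The calls came from the same libraries, so this separation adds no support, and its share over all genes was not counted. The same holds for the called genes described below. Mcm6 (chr1:128331590-128359664) was 11.24, 11.20, 11.33 and 11.39 in WT and 11.04, 10.95, 11.004 and 10.83 in Cpeb4-/-, a difference of −0.33 (SE 0.0553, adjusted p = 0.00214, limma). Cdt1 was 9.91, 10.11, 9.97 and 10.06 and 9.54, 9.81, 9.83 and 9.59, a difference of −0.32 (SE 0.0713, adjusted p = 0.0104, limma), and it was lower at 3 hr too, with a difference of −0.28 (SE 0.0575, adjusted p = 0.0313, limma). Pcna (chr2:132249162-132253314) was 12.26, 12.43, 12.38 and 12.45 and 12.10, 12.21, 12.12 and 12.12, a difference of −0.24 (SE 0.0469, adjusted p = 0.005, limma). The call of Cdt1 at 3 hr was lost under 7 of 16 alternatives (adjusted p up to 0.105). The calls of Mcm6 and Pcna at 6 hr were kept under all 16 alternatives tried and that of Cdt1 at 6 hr under 15, being lost with no filter on low values (adjusted p = 0.0614). Gins2, −0.20 (SE 0.0586, adjusted p = 0.0328, limma), and Mcm5, −0.17 (SE 0.0514, adjusted p = 0.0397, limma), were each lost under 9 of 16. Mcm5 was lower by a like amount, −0.16 to −0.19, at the other times without being called, and it was called lower at 1, 3 and 9 hr with the replicate block. The differences in batches 1 and 2 were −0.42 and −0.24 for Mcm6, −0.29 and −0.35 for Cdt1 and −0.19 and −0.29 for Pcna. The mean of the 9 macrophage markers was also lower in Cpeb4-/- at 6 hr, 14.9 to 15.1 against 15.2 in each WT library, and 5 of the 9 passed the test as lower, where 9.92% of all genes did. Of the fibroblast markers Pdgfrb was higher (0.67, adjusted p = 2.18e-04, limma) and Dcn had a difference of 0.27 that was not called, and of the progenitor markers Kit was lower (−0.59, adjusted p = 0.0144, limma) and Cd34 had a difference of 0.18 that was not called. The part of these markers in the result was not tested.

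The 4 higher G2/M genes were Bub1b, Cdc20, Aurkb and Kif23. Bub1b (chr2:118598211-118641591) encodes BubR1, a subunit of the spindle checkpoint complex that restrains Cdc20. It was 7.86, 7.76, 8.05 and 7.71 in WT and 8.47, 8.43, 8.28 and 8.17 in Cpeb4-/-, without overlap, a difference of 0.49 (SE 0.0882, adjusted p = 0.00337, limma). Its difference was 0.27 (SE 0.0568, adjusted p = 0.0461, limma) at 1 hr and 0.34 (SE 0.072, adjusted p = 0.034, limma) at 3 hr, with no overlap at either time, and 0.32 (SE 0.0912, adjusted p = 0.0578, limma) at 9 hr. The call at 6 hr was kept under all 16 alternatives, and those at 1 and 3 hr were each lost under 10 of 16.

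Cdc20 activates the ubiquitin ligase that ends mitosis. It was 7.66, 7.33, 7.81 and 7.55 in WT and 8.16, 8.01, 7.93 and 7.78 in Cpeb4-/- at 6 hr, where 1 Cpeb4-/- library lay within the WT range, and the difference was 0.38 (SE 0.105, adjusted p = 0.0273, limma). At 3 hr it was 9.21, 9.34, 9.41 and 9.50 and 9.72, 9.84, 9.64 and 9.75, without overlap, a difference of 0.38 (SE 0.0702, adjusted p = 0.0216, limma), a call lost under 5 of 16 alternatives. Exons of Cdc20 overlap those of Elovl1 on the other strand. Aurkb, the kinase of the chromosomal passenger complex, was 7.80, 7.70, 7.98 and 7.85 and 8.23, 8.27, 8.15 and 7.88, a difference of 0.31 (SE 0.0908, adjusted p = 0.038, limma) with 1 library overlapping. Kif23 differed by 0.28 (SE 0.0766, adjusted p = 0.0275, limma), also with overlap. These 3 calls at 6 hr were lost under 6, 9 and 6 of 16 alternatives, and the differences were positive in both batches for all 4 genes, from 0.26 to 0.52.

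**Figure D5:**
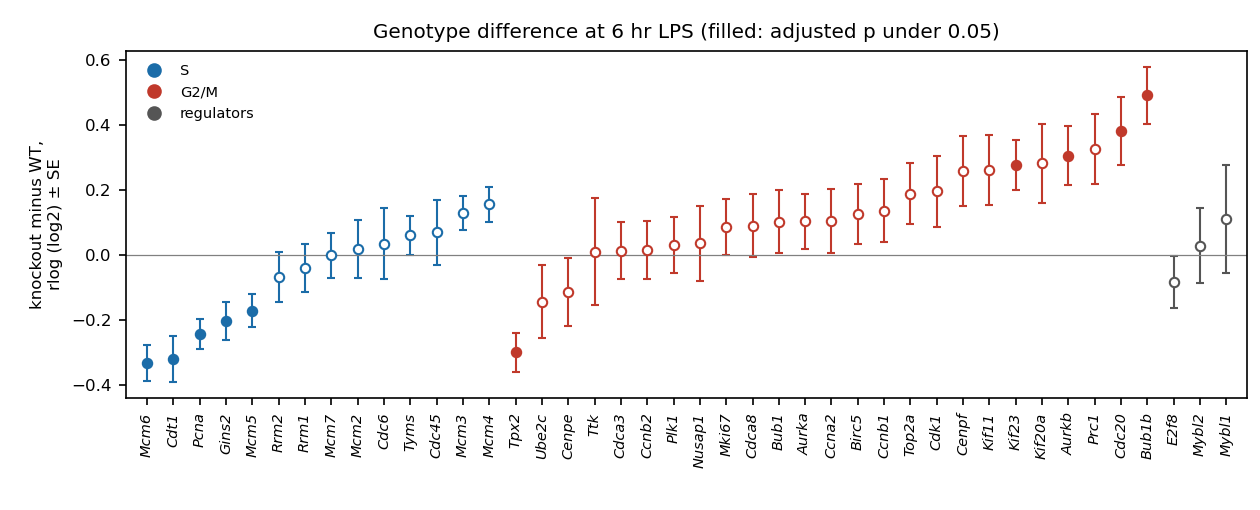
Knockout minus WT difference at 6 hr of LPS for each of the 42 genes, as rlog (log2) with SE bars, sorted within the S genes (blue), G2/M genes (red) and regulators (grey), with filled symbols for an adjusted p under 0.05. The 5 filled S genes are below 0, and of the 5 filled G2/M genes 4 are above 0 and Tpx2 is below.

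Tpx2 (chr2:152847964-152895321), which activates the kinase Aurka and builds spindle microtubules, had the smallest fall of the G2/M genes in WT at 9 hr. The rlog of Tpx2 in WT libraries was 11.27, 11.14, 11.15 and 11.14 untreated, 11.53, 11.48, 11.48 and 11.43 at 1 hr, 11.12, 11.13, 11.12 and 11.18 at 3 hr, 11.39, 11.51, 11.32 and 11.53 at 6 hr and 10.70, 10.96, 10.76 and 10.78 at 9 hr. Tpx2 in Cpeb4-/- libraries was 11.22, 11.42, 11.31 and 11.08 untreated, 11.65, 11.61, 11.63 and 11.49 at 1 hr, 11.29, 11.20, 11.25 and 11.19 at 3 hr, 11.03, 11.19, 11.26 and 11.08 at 6 hr and 10.46, 10.59, 10.70 and 10.30 at 9 hr. In WT it rose at 1 hr, returned at 3 hr and was higher again at 6 hr, 0.26 (SE 0.0678, adjusted p = 6.59e-04, limma), when the 41 other genes were lower, and fell below the untreated level at 9 hr, −0.38 (SE 0.0678, adjusted p = 7.50e-06, limma). The second rise depended on the scaling, since with quantile normalization the WT change at 6 hr was −0.13 (adjusted p = 0.085). In Cpeb4-/- the change at 6 hr was −0.12 and did not pass the test. The 4 Cpeb4-/- libraries at 6 hr lay below the 4 WT libraries, a difference of −0.30 (SE 0.0598, adjusted p = 0.00589, limma) that was kept under all 16 alternatives and was −0.33 and −0.27 in batches 1 and 2.

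In the fit without a mouse term, the change with LPS itself differed between genotypes only for Tpx2 among the 42 genes. The change in Cpeb4-/- minus that in WT was −0.38 (SE 0.0959, adjusted p = 0.023, limma) at 6 hr and −0.37 (SE 0.0959, adjusted p = 0.0364, limma) at 9 hr. Of all genes 2.94% were called at 6 hr and 1.76% at 9 hr in this test. At 1 and 3 hr none of the 42 was called by limma and none had an unadjusted p under 0.05. Of all genes 0.00763% and 0.206% were called at these times, and 1.57% and 5.03% had an unadjusted p under 0.05. The call for Tpx2 was lost at 6 hr without Cpeb4-/- mouse 2 or 3 or WT mouse 69 or 88 (adjusted p = 0.0853 to 0.109) and with quantile normalization (adjusted p = 0.055), and at 9 hr without Cpeb4-/- mouse 2, 3 or 62 or WT mouse 69, 87 or 88 (adjusted p = 0.0532 to 0.196). With the mouse as a block (replicate block) 6 genes were called at 6 hr, with Mcm3, Cdk1 and Bub1b falling less in Cpeb4-/- and Mcm6, Pcna and Tpx2 changing further downward. The share of all genes called with this block was not counted. Outside the set, chosen after the values were seen, the test called Foxm1 at 6 hr (−0.38, adjusted p = 0.0375) and Ccne1, the cyclin of S phase entry, at 3 hr (−0.70, adjusted p = 0.0248).

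The other genes of the same processes were also compared between genotypes at 6 hr. Of 33 other mitosis genes 4 were higher in Cpeb4-/- (Cenpa, Cks1b, Kif15 and Smc4, by 0.23 to 0.39), with a median of 0.11 over the list. Of 30 other replication genes 4 were lower (Rfc3, Mcm10, Lig1 and Rfc5, −0.42 to −0.22) and Rpa3 was higher by 0.62, with a median of −0.02. Of 18 other G1/S genes Foxm1, which activates G2/M genes, was lower (−0.40), as was Rbl1 (p107, −0.35), with a median of 0.03. Of all genes 6.4% were higher and 9.92% lower at this time. These genes were named after their values were seen, and the median of all genes was −0.02.

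The number of mice limits what can be seen. The median SE of a genotype difference of the 42 genes was between 0.070 and 0.096. Genes that could share reads are less certain. Exons of 13 of the 42 genes overlap exons of another gene (3 S genes, 9 G2/M genes and E2f8), and the table also lists the pseudogenes Tyms-ps and Ccnb1-ps.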

How the data were processed

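Poly(A) RNA of 40 BMDM libraries was sequenced with a kit that does not keep the strand. The submitters' processing notes name STAR 2.3.0e, featureCounts, DESeq2 and the mouse build mm10. The deposited values are rlog values on a log2 scale, which the authors made with DESeq2 by moderating low counts and correcting for library size, so that differences of low genes are understated. The table holds no counts, so the depth is unknown from it, and the alignment statistics of the study were not used here.

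From these values, differences were fitted in limma 3.58.1 (R 4.3.3, statmod 1.5.0) with a variance trend. Genes whose mean rlog was under 2.32, the log2 of 5, were left out. Benjamini-Hochberg adjustment ran over all tested genes (threshold 0.05). Genotypes were compared within each time, and LPS effects and their difference between genotypes in a fit of all 40 libraries. The scripts were tested on simulated data. The genes and lists were chosen with earlier results of these data known. Named genes were the panel, the 3 S and 3 G2/M genes with the largest fall at 9 hr in WT and those that differed between genotypes. The comparison of 9 with 6 hr was added after the values were seen.

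Replicates are mice, each present at all 5 times. Libraries of one mouse deviated from their group means together over all genes (median r = 0.29 over 80 pairs, 68 of them over 0.1, lowest −0.19). Over the 42 genes the median was 0.187, with 48 of 80 pairs over 0.1 and the lowest at −0.66. Over 240 pairs of other mice the median for all genes was −0.0907. Taking deviations from group means pushes that value below 0, so it is no separate contrast. Fits with the mouse as a block were run as alternatives. Other alternatives were the filter on low values, the variance model, quantile normalization, batch as a covariate, one fit of all libraries and leaving out each mouse. The summed level of the erythroid marker list is not reported here.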

Additional observations from a re-analysis of the deposited data

Results flagged for a closer look

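Among 260 groups of 4 libraries, 14 held a library far from the other 3 by Dixon's test, where chance flags about 1 group in 20. Those of Cpeb4-/- mice were Ccna2 at 3 hr in mouse 2 (rlog 10.67), Ccnb1 at 6 hr in mouse 2 (7.748), Ccnb1 at 9 hr in mouse 62 (7.024), Plk1 at 9 hr in mouse 62 (7.575), Mcm5 at 9 hr in mouse 62 (9.938) and Mybl2 at 6 hr in mouse 55 (5.284). Those of WT mice were Cdc6 at 3 hr in mouse 69 (5.728), Mybl1 at 9 hr in mouse 69 (4.397), Bub1b at 3 hr in mouse 88 (9.809), Kif23 at 3 hr in mouse 88 (9.623), Kif23 at 6 hr in mouse 87 (7.832), Cenpf at 9 hr in mouse 87 (7.838), Tpx2 untreated in mouse 25 (11.27) and the S class mean at 9 hr in mouse 87 (9.194).

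The LPS change of Tpx2 differed between genotypes by the interaction test in limma, with −0.382 at 6 hr (adjusted p = 0.023) and −0.3665 at 9 hr (adjusted p = 0.0364). Tpx2 was the 1 gene of the 42 called, where the same test called 2.94% of all genes at 6 hr and 1.76% at 9 hr. The call was lost under 5 of 14 alternatives at 6 hr and 6 of 14 at 9 hr.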

How the results depend on the processing

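All 42 genes stayed lower at 9 hr in both genotypes under every alternative run, and the 17 panel and most-changed genes named there kept their calls. Genotype calls were less stable. The share of all genes called was not counted under the alternatives. Leaving out 1 mouse gave 0 to 1 genes at 0 hr, 0 to 10 at 1 hr, 0 to 19 at 3 hr, 5 to 14 at 6 hr and 0 to 6 at 9 hr, 7 to 12 for Cpeb4-/- at 1 hr of LPS, and 0 to 1 for the difference in LPS change at 6 hr and at 9 hr. At 1 hr the count was 0 with no filter, without the variance trend, with quantile normalization and with batch as a covariate, 14 in one fit without the block and 15 with the replicate block. At 3 hr it was 1 with no filter or with batch, 6 in one fit and 8 with the replicate block. At 6 hr it was 5 with no filter. At 9 hr it was 1 with a mean rlog of at least 5, 4 with batch, 4 in one fit and 5 with the replicate block. The mouse as a fixed block (replicate block) gave 19 genes for WT at 1 hr of LPS and 6 for the difference in LPS change at 6 hr, where quantile normalization gave 0, and it moved no other count by over 1.5 times. With medians over genes, the change of S minus G2/M was −0.37 in WT at 3 hr, 0.23 in WT at 9 hr and 0.39 in Cpeb4-/- at 6 hr, and the genotype difference at 9 hr turned to 0.029. The cause was not tested. Precision is limited by 4 mice a group, and no counting error was computed, since the values used hold no counts.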
